A study of Homo sapiens with 8 samples.

Results

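Glutathione S-transferases are enzymes that join the tripeptide glutathione to reactive, electrophilic compounds, and the genes described here are the 10 family members GSTP1, GSTM2, GSTM3, GSTM4, GSTA4, GSTO1, GSTZ1, GSTK1, MGST1 and MGST3. Membership was set by gene symbol, and each symbol was matched to its Ensembl identifier. This gave 10 of the 60291 identifiers that were listed for every library, whether or not reads fell on them. The counts came from A549, an established human lung adenocarcinoma line with a loss-of-function mutation in KEAP1, so that the control cells carried this lesion too. NFE2L2 encodes NRF2, the transcription factor that KEAP1 normally holds at a low level, and the comparison asked how the transcriptome differed after NFE2L2 had been silenced.

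In each transfection, 250000 cells received lipid reagent with 5 nmol of an siRNA duplex, and RNA was harvested 48 h later. The NFE2L2 siRNA group held 3 libraries, 1 for each of 3 duplexes against NFE2L2. The control siRNA group held 4 libraries, from 2 non-targeting duplexes that were transfected 2 times each, so that control replicates 1 and 2 were duplex 1 and replicates 3 and 4 were duplex 2. A mock library, from reagent without siRNA, stood by itself. All samples came from a single cell line, and p-values therefore measure the spread between these libraries. Whether an mRNA was lower in every cell or in part of the cells cannot be told apart in such bulk RNA.

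The 8 libraries held 35525141 to 41645410 reads counted on genes, and a count of 3 reads corresponded to 0.0720 to 0.0844 CPM (reads per 1000000 gene counts). The epithelial keratins KRT8 and KRT18 were abundant in every library, at 4036 to 6422 CPM for KRT8 and 2876 to 5161 CPM for KRT18. The other epithelial markers were lower, with CDH1 at 102 to 237 CPM, KRT19 at 39.9 to 116 CPM and EPCAM at 3.595 to 11.05 CPM. Of the markers of the lung epithelial lineage, NKX2-1 had at most 3 reads and SFTPB at most 1 read in a library, SFTPC had at most 6 reads, and NAPSA ranged from 1.95 to 3.56 CPM. NFE2L2 itself, which checks the labels, had 1178, 2044 and 1262 reads in the NFE2L2 siRNA libraries, 3974, 4100, 4166 and 4227 reads in the control siRNA libraries and 4408 reads in the mock library. Its log2 fold change was −1.55 (SE 0.178, edgeR adjusted p = 0.000994), and its level under NFE2L2 duplexes 1, 2 and 3 was 29.6%, 47.9% and 27.4% of the control mean, so that duplex 2 left the most NFE2L2 mRNA.

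The family holds cytosolic, mitochondrial and membrane-bound proteins of separate structure. The cytosolic enzymes fall into classes named by Greek letters, and here they comprise pi (GSTP1), mu (GSTM2, GSTM3, GSTM4), alpha (GSTA4), omega (GSTO1) and zeta (GSTZ1). The kappa enzyme GSTK1 resides in mitochondria and peroxisomes, and the membrane-bound MAPEG proteins, to which MGST1 and MGST3 belong, sit in microsomal membranes and, for MGST1, also in the outer mitochondrial membrane. NRF2 binds with a small MAF protein to antioxidant response elements in DNA, and several genes of this family in rodents and humans are known to carry such elements. Conjugates made by these enzymes are exported by ABC transporters and trimmed to mercapturates, and the supply of glutathione rests on cystine uptake and on the glutamate-cysteine ligase.

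Because the element has the core TGACNNNGC, the 250 bases before each annotated start (RefSeq, found letter for letter in GRCh37, 12 windows over the 10 genes) were searched for it on both strands. The core was present in windows of 3 of the 10 genes, GSTP1, GSTO1 and GSTA4, and it was present in 10.9% of 35116 promoter windows of the same length. The windows of these 3 genes and that of MGST1, the gene with the largest difference, are printed 5′ to 3′ on the strand of the gene, with each match to the core in capitals. The GSTP1 window lies at chr11:67351033-67351282 on the plus strand, GSTO1 at chr10:106014400-106014649 on the plus strand, GSTA4 at chr6:52860083-52860332 on the minus strand and MGST1 at chr12:16500329-16500578 on the plus strand.
GSTP1: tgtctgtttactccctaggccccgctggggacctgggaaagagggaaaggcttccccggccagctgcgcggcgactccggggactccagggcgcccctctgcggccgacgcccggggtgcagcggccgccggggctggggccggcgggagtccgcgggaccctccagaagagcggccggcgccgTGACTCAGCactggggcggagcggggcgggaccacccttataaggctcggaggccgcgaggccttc
GSTO1: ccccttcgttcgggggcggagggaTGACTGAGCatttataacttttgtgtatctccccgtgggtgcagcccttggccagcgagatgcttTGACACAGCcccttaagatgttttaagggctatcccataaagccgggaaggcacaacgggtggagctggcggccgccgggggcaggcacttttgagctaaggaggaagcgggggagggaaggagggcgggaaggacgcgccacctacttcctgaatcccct
GSTA4: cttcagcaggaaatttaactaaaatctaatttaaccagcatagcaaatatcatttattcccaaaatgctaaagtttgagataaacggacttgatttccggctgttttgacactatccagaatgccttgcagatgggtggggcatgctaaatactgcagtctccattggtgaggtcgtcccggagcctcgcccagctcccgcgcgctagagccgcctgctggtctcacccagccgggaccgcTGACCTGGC
MGST1: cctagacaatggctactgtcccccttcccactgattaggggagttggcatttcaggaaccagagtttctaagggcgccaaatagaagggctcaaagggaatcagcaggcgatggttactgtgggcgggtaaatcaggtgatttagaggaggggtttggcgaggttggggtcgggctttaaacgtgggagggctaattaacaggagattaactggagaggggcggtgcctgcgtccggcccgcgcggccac

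In GSTP1 the match TGACTCAGC began 66 bases before the start, and it contains the letters of the AP-1-like motif TGANTCA (6.57% of the windows held this motif). That motif reads the same on both strands, so it is a single site there. GSTO1 held matches beginning 226 and 161 bases before its start, and the GSTA4 match began 9 bases before. In MGST1 neither the printed window nor the windows before 2 other annotated starts held these letters. These matches are letters in a window and no measurement of binding.

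The 10 genes covered a wide range of levels in A549. On a scale per length (RPKM, reads per kilobase of the canonical transcript and per 1000000 gene counts), the mean level over the 4 control siRNA libraries was 554 ± 29.5 (SD) for GSTP1 and 321 ± 8.17 for MGST1. Then followed GSTO1 at 117 ± 5.22 RPKM, MGST3 at 81.7 ± 8.91 RPKM and GSTK1 at 55.0 ± 0.462 RPKM. Lower levels were found for GSTZ1 at 18.5 ± 2.43 RPKM, GSTA4 at 10.5 ± 1.62 RPKM and GSTM4 at 4.06 ± 0.386 RPKM. The remaining mu genes were lowest, GSTM3 at 1.79 ± 0.101 RPKM and GSTM2 at 0.497 ± 0.0994 RPKM. In the control libraries no neighbours in this order overlapped. With NFE2L2 siRNA the mean levels had the same order, but the libraries of MGST1 (108 to 159 RPKM) overlapped those of GSTO1 (86.1 to 125 RPKM), and those of MGST3 (61.4 to 66.5 RPKM) overlapped those of GSTK1 (48.2 to 73.3 RPKM). The order depends on the length used: divided by the length of all annotated exons, GSTO1 ranked 2 and MGST1 ranked 3 in the controls, and the order within the pairs GSTK1 and MGST3, GSTA4 and GSTZ1, and GSTM3 and GSTM4 was swapped as well.

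**Figure D1:**
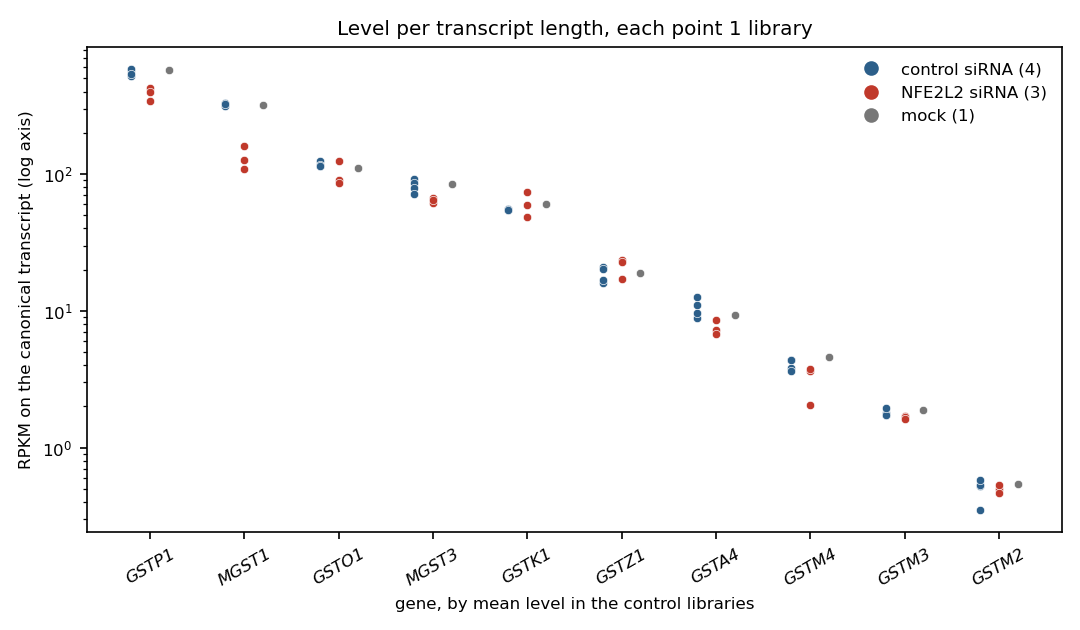
Level of each gene per length of its canonical transcript (RPKM, log axis), with each point 1 library, for control siRNA (blue, 4 libraries), NFE2L2 siRNA (red, 3 libraries) and mock (grey, 1 library), ordered by the control mean. GSTP1 is highest and GSTM2 lowest in both groups, and the red points of MGST1 lie clear of its blue points.

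Silencing of NFE2L2 was accompanied by lower MGST1 mRNA, and at an adjusted p under 0.01 in edgeR MGST1 was the single gene of the 10 that fell. GSTP1, the most abundant, was lower in all 3 NFE2L2 siRNA libraries than in any control library but just missed the threshold. All 10 genes were tested: 1 of 10 passed 0.01, 2 of 10 passed 0.05 and 4 of 10 had an unadjusted p under 0.05. Among the 17811 genes tested, 2.76% passed 0.01, 1.36% passed it as lower and 8.17% passed 0.05, and 25% had an unadjusted p under 0.05. DESeq2 called 2 of the 10 genes (MGST1 and GSTP1), against 7.38% of all genes.

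Separation was scored in CPM, without the scaling factors (TMM) of the edgeR fit. On this scale the highest NFE2L2 siRNA library was under the lowest control siRNA library for 5 of the 10 genes, against 9.5% of all tested genes. These were MGST1, GSTP1, GSTA4, MGST3 and GSTM3, but with the factors the groups of GSTM3 overlapped. The 10 genes were chosen with earlier results of these data known, so such shares are no independent test. None of the 10 had every NFE2L2 siRNA library above the controls, against 13.6% of all tested genes. For the other 5 the groups overlapped in CPM. The log2 fold change was negative for 8 genes and positive for 2, with a median of −0.32 beside 0.008 over all tested genes.

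**Figure D2:**
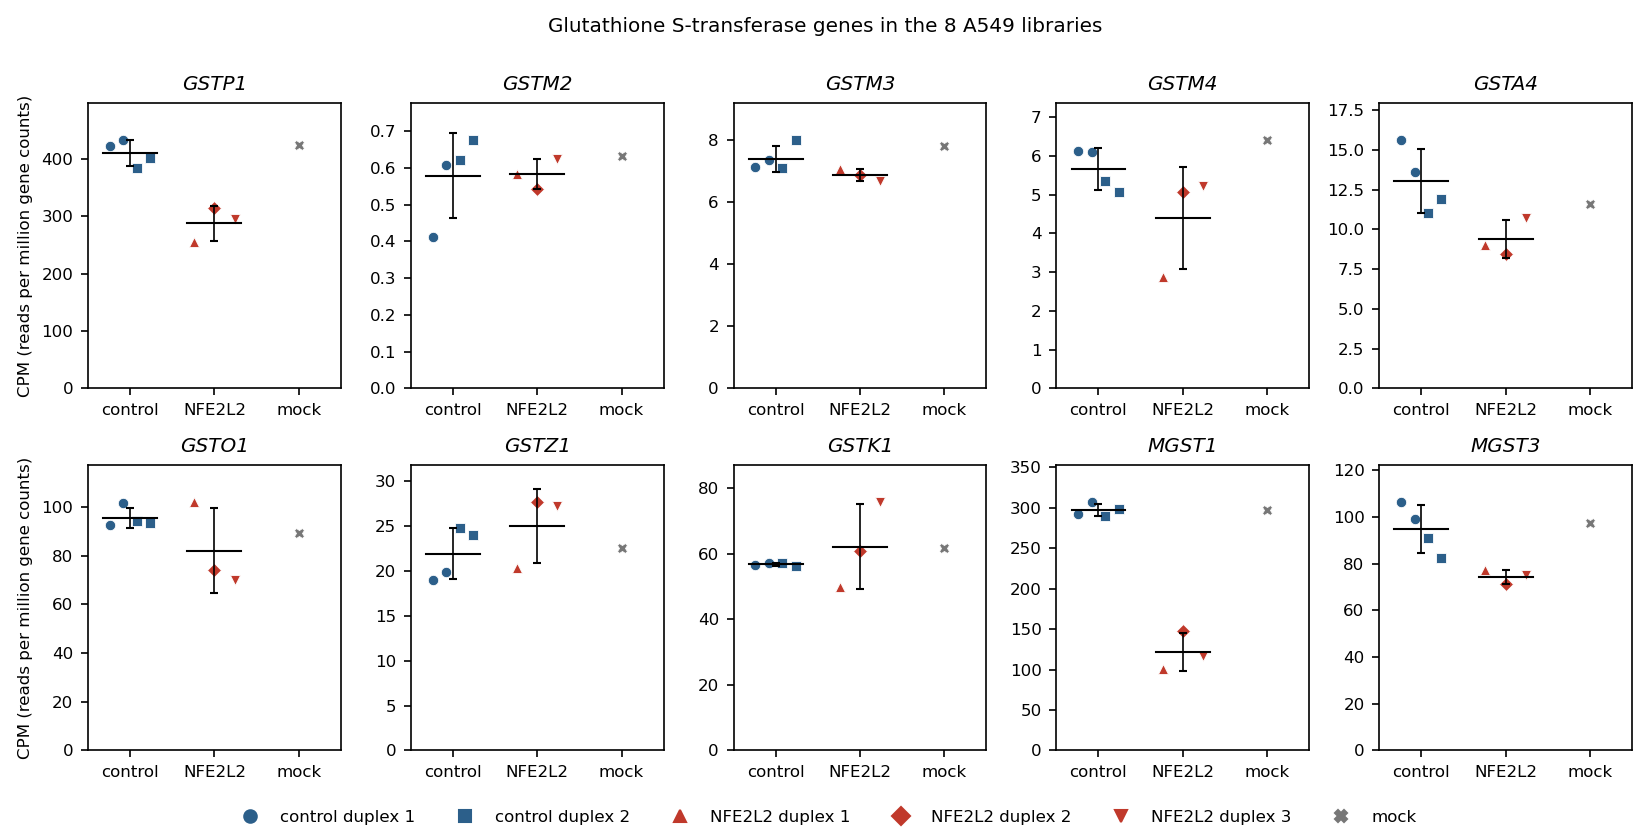
CPM of each gene in each library, with control siRNA in blue (circles duplex 1, squares duplex 2), NFE2L2 siRNA in red (a symbol for each duplex) and mock as a grey cross; horizontal lines are group means and bars are the SD (n = 4 and n = 3), and each panel has its own axis from 0. MGST1 and GSTP1 show a gap between the groups, whereas in GSTO1, GSTZ1 and GSTK1 the NFE2L2 duplexes lie on both sides of the control mean.

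MGST1 (ENSG00000008394.8, GRCh37 chromosome 12 from 16500076 to 16762193, plus strand) encodes microsomal glutathione S-transferase 1, which also reduces lipid hydroperoxides. It had 3608, 5686 and 4858 reads under NFE2L2 duplexes 1, 2 and 3. The control siRNA libraries had 11409, 11623, 10718 and 10601 reads and the mock library 11753 reads. All 3 NFE2L2 siRNA libraries were far below the 4 controls, and the mock library lay above them in reads and among them in CPM. On the CPM scale MGST1 averaged 121 ± 23.7 (SD) over the 3 NFE2L2 siRNA libraries and 297 ± 7.56 (SD) over the 4 control siRNA libraries, which is 40.9% of the control level. The log2 fold change was −1.33 (SE 0.125, 95% interval −1.60 to −1.05, edgeR adjusted p = 0.000282).

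The size of the MGST1 difference held against either control duplex, at −1.38 on the log2 scale against duplex 1 and −1.28 against duplex 2, although with duplex 2 alone the edgeR adjusted p was 0.0144. When the reads of both libraries of a control duplex were added up, it was −1.32 (edgeR adjusted p = 0.0115), which missed the threshold. Under NFE2L2 duplexes 1, 2 and 3 MGST1 stood at 33.8%, 49.5% and 39.3% of the control mean. Duplex 2, which left the most NFE2L2 mRNA, also left the most MGST1 and GSTP1 mRNA. Of the other genes whose groups did not overlap in CPM, GSTA4 (64.8%) and MGST3 (75.1%) were lowest under duplex 2, and GSTM3 was intermediate. A relation to the remaining NFE2L2 mRNA was not tested. No 50-base stretch of the canonical MGST1 transcript matched elsewhere in GRCh37, and of the genes that overlap its span the most counted, the pseudogene SUPT16HP1 on the opposite strand, had 11 to 23 reads in a library.

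MGST3 (ENSG00000143198.8, chromosome 1 from 165600450 to 165631033, plus strand), a related membrane enzyme, had 2770, 2748 and 3124 reads with NFE2L2 siRNA against 4141, 3752, 3355 and 2930 with control siRNA and 3841 in the mock library. In CPM these were 77.0, 71.1 and 75.0 against 106, 99.1, 90.8 and 82.5. The groups did not overlap, yet the control libraries of duplex 1 were both above those of duplex 2, and control replicate 4 came close to the NFE2L2 siRNA libraries. Its log2 fold change was −0.38 (SE 0.116, 95% interval −0.64 to −0.12, edgeR adjusted p = 0.0727), and it was −0.54 against control duplex 1 and −0.22 against control duplex 2.

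GSTP1 (ENSG00000084207.11, chromosome 11 from 67351213 to 67354127, plus strand), the pi-class enzyme that is prominent in many carcinomas, had 9150, 12123 and 12326 reads with NFE2L2 siRNA. The control siRNA libraries had 16486, 16390, 14213 and 14253 reads and the mock library 16741. Every NFE2L2 siRNA library was below every control library, with duplex 1 the lowest. The level was 288 ± 30.4 CPM (SD, n = 3) against 410.5 ± 21.9 CPM (SD, n = 4), or 70.2% of the control level. This corresponded to a log2 fold change of −0.55 (SE 0.1004, 95% interval −0.77 to −0.32, edgeR adjusted p = 0.0106), which just missed the threshold. DESeq2 gave GSTP1 an adjusted p of 7.15e-05, and GSTP1 passed the threshold in 5 of 11 alternative analyses and when NFE2L2 siRNA replicate 2 was left out (log2 fold change −0.62, edgeR adjusted p = 0.0064). Against control duplex 2 alone its log2 fold change was −0.45 and its edgeR adjusted p 0.141, the highest over the alternatives. Omission of any 1 of the 7 libraries left its difference between −0.62 and −0.47 on the log2 scale. No 50-base stretch of its canonical transcript matched elsewhere in the genome.

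GSTA4 (ENSG00000170899.6, chromosome 6 from 52842746 to 52860102, minus strand), which conjugates 4-hydroxynonenal, an aldehyde from oxidized lipids, had 325, 327 and 446 reads with NFE2L2 siRNA. With control siRNA it had 609, 515, 409 and 424 reads, and 459 in the mock library. The groups did not overlap in CPM (8.46 to 10.7 against 11.1 to 15.6), although the raw count of NFE2L2 duplex 3 exceeded those of control duplex 2. The log2 fold change was −0.51 (SE 0.158, 95% interval −0.86 to −0.16, edgeR adjusted p = 0.0782), and it was −0.71 against control duplex 1 and −0.30 against control duplex 2.

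The 3 mu-class genes lie close together on chromosome 1 and were weakly expressed. GSTM4 (ENSG00000168765.11, 110198721 to 110208118, plus strand) had 103, 196 and 217 reads with NFE2L2 siRNA against 239, 231, 198 and 180 with control siRNA and 253 in the mock library. Only NFE2L2 duplex 1 was clearly below the controls, at 50.6% of their mean CPM, whereas duplexes 2 and 3 were at 89.5% and 92.0%. For GSTM4 the log2 fold change was −0.41 (SE 0.205, 95% interval −0.86 to 0.05, edgeR adjusted p = 0.252), and −0.19 without NFE2L2 siRNA replicate 1.

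GSTM3 (ENSG00000134202.6, 110276554 to 110283660, minus strand) had 254, 265 and 278 reads against 278, 278, 262 and 284, with 308 in the mock library. In CPM its 3 NFE2L2 siRNA libraries were below the 4 controls, but the highest of them, 7.06 CPM, nearly touched the lowest control, 7.09 CPM. The TMM factors of the fit, 0.996 for NFE2L2 siRNA replicate 1 and 1.003 for control siRNA replicate 3, reverse this order. The fitted log2 fold change was −0.14 (SE 0.111, 95% interval −0.39 to 0.11, edgeR adjusted p = 0.481).

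GSTM2 (ENSG00000213366.8, 110210644 to 110252173, plus strand) had 21, 21 and 26 reads against 16, 23, 23 and 24, with 25 in the mock library. At this depth the interval of its log2 fold change ran from −0.55 to 0.53 around −0.01 (SE 0.242, edgeR adjusted p = 0.981), so a difference within this interval was not detectable, and its sign turned in 7 of 18 alternative analyses. Reads of the mu genes are also the least certain, as 43.3% of the 50-base stretches of the GSTM2 transcript, 12.3% of GSTM4 and 5.5% of GSTM3 occurred elsewhere in GRCh37. For GSTM2 and for GSTM4 the most frequent places lay in the annotated span of GSTM2, which covers GSTM1, and in GSTM1. The annotated span of GSTM2 overlaps GSTM1, which had 0 or 1 read in a library, and GSTM5, which overlaps the span of GSTM3 on the opposite strand, also had 0 or 1 read.

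GSTO1, GSTZ1 and GSTK1, whose roles reach beyond conjugation, showed no difference past the threshold, and their NFE2L2 duplexes lay on both sides of the control mean. GSTO1 (ENSG00000148834.8, chromosome 10 from 105995114 to 106027217, plus strand), which carries thioltransferase and dehydroascorbate reductase activity, had 3665, 2858 and 2914 reads with NFE2L2 siRNA. The control libraries had 3608, 3850, 3475 and 3315 reads of GSTO1 and the mock library 3528. In CPM, NFE2L2 duplex 1 (101.9) was level with the highest control (101.7), whereas duplexes 2 and 3 (73.9 and 70.0) were below all 4 controls. GSTO1 had a log2 fold change of −0.25 (SE 0.138, 95% interval −0.56 to 0.06, edgeR adjusted p = 0.295), and without NFE2L2 siRNA replicate 1 it was −0.45 (edgeR adjusted p = 0.0156).

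GSTZ1 (ENSG00000100577.14, chromosome 14 from 77787339 to 77797940, plus strand), the maleylacetoacetate isomerase of tyrosine breakdown, had 730, 1069 and 1132 reads against 741, 754, 918 and 851, with 891 in the mock library. Duplexes 2 and 3 were above all controls in CPM and duplex 1 was among them. GSTZ1 had a log2 fold change of 0.16 (SE 0.135, 95% interval −0.14 to 0.46, edgeR adjusted p = 0.504), and it was 0.29 against control duplex 1 and 0.03 against control duplex 2.

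GSTK1 (ENSG00000197448.9, chromosome 7 from 142941186 to 142967947, plus strand) had the narrowest control range of the 10 relative to its level, 56.1 to 57.1 CPM, yet the NFE2L2 siRNA libraries spread from 49.7 through 60.9 to 75.7 CPM on both sides of it. These values came from 1788, 2352 and 3152 reads with NFE2L2 siRNA and from 2206, 2160, 2112 and 1993 reads with control siRNA, with 2442 in the mock library. The log2 fold change of GSTK1 was 0.10 (SE 0.126, 95% interval −0.19 to 0.38, edgeR adjusted p = 0.687), and without NFE2L2 siRNA replicate 3 it was −0.06.

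**Figure D3:**
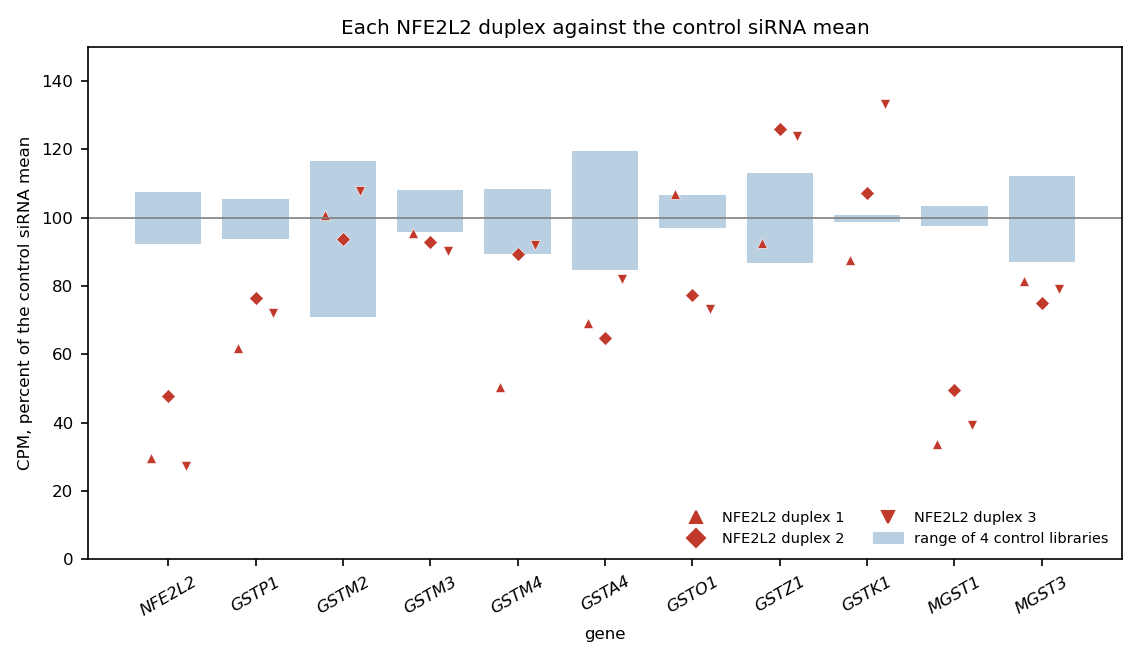
CPM of NFE2L2 and of the 10 genes under each NFE2L2 duplex, as percent of the control siRNA mean (red symbols), with the range of the 4 control libraries as a blue band. For MGST1 the symbols stand at 33.8%, 49.5% and 39.3%, and for GSTK1 they run from 87.7% to 133%.

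By themselves, 3 against 4 libraries allow no exact two-sided permutation p below 0.0571 (35 divisions), and that was the value for each of the 5 genes without overlap in CPM. Their adjusted p-values therefore rest on the model of the edgeR fit, which combines the spread of each gene with that shared across genes. The control duplexes also differed from each other. For duplex 2 against duplex 1, with 2 libraries each, none of the 10 genes passed 0.01 in edgeR, where 3.28% of 17261 genes did, 5 had an unadjusted p under 0.05, where 26% of genes did, and 3 of 10 passed 0.05, where 10.1% of genes did. The 3 were GSTA4 (log2 fold change −0.40, edgeR adjusted p = 0.0357), MGST3 (−0.30, adjusted p = 0.0307) and GSTZ1 (0.27, adjusted p = 0.0434). For MGST1 the difference between the control duplexes was −0.08 (95% interval −0.22 to 0.06) and for GSTP1 −0.18 (95% interval −0.32 to −0.04).

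**Figure D4:**
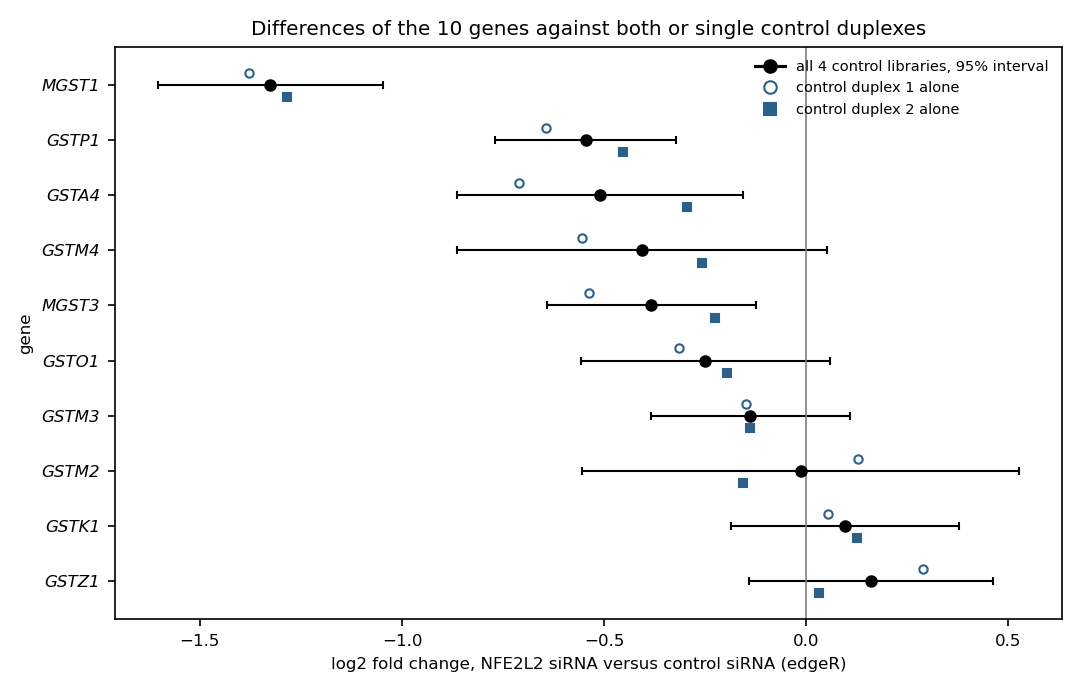
Log2 fold change of each gene, NFE2L2 siRNA against all 4 control siRNA libraries (black points, bars are 95% intervals calculated back from the edgeR test), against control duplex 1 alone (open circles) and against control duplex 2 alone (squares). MGST1 lies near −1.33 under each choice. GSTP1, GSTA4, GSTM4, GSTO1, GSTZ1 and MGST3 lie closer to 0 against duplex 2 than against duplex 1.

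Summed over the 10 genes, the level was 674 ± 46.7 CPM (SD) over the 3 NFE2L2 siRNA libraries and 1003 ± 36.6 CPM (SD) over the 4 control siRNA libraries, which is 67.2% of the control sum. MGST1 accounted for 53.4% of the difference between these sums and GSTP1 for 37.2%, so that both together carried most of it. The make-up of the family moved accordingly. MGST1 formed 26.8% to 28.3% of the summed RPKM in the control libraries and 15.1% to 19.2% in the NFE2L2 siRNA libraries, whereas GSTP1 formed 46.4% to 48.3% and 47.7% to 51.0%. There were 0.394, 0.469 and 0.394 MGST1 reads per GSTP1 read with NFE2L2 siRNA, 0.692 to 0.754 with control siRNA and 0.702 in the mock library. The log2 ratio differed by −0.79 between the groups without overlap (two-sided exact permutation p = 0.0571, the smallest possible). This ratio was not a planned test and pairs the genes with the largest differences in these data, so it is no separate result.

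The mock library was within the range of the control libraries in CPM for 7 of the 10 genes, above it for GSTM4 and GSTK1 and below it for GSTO1, and it was 0.890 to 1.13 times the control mean. It was a single library and was not tested.

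Among 16 other genes of the wider family, 7 had enough reads to be tested and none passed 0.01 in edgeR, with a median log2 fold change of −0.24. The most abundant of them in CPM was PTGES, the prostaglandin E synthase of the MAPEG group, with a log2 fold change of 0.18 (SE 0.154, edgeR adjusted p = 0.524). Per length of the canonical transcript MGST2 was higher, with a control mean of 37.3 RPKM against 29.5 RPKM for PTGES. At an unadjusted p under 0.05 there were 3 of 7 (GSTA1, GSTA2 and GSTCD), all lower, against 25% of all tested genes. For the same 3 every NFE2L2 siRNA library was below every control library, against 9.5% of all tested genes. GSTA1 and GSTA2 reached the 10 reads needed for a test only in control siRNA libraries. Both shares of the 7 are therefore partly set by this filter and give no separate support. Their edgeR log2 fold changes were −2.50, −1.85 and −0.57, and GSTCD had an edgeR adjusted p of 0.0241. DESeq2 called 1, GSTCD, against 7.38%. The alpha-class genes GSTA1 (3, 1 and 2 reads against 17, 15, 5 and 8) and GSTA2 (4, 3 and 4 reads against 25, 6, 12 and 8), named after their values were seen, were low throughout, with edgeR adjusted p-values of 0.0365 and 0.0839, and 20.7% and 16.2% of their 50-base stretches matched elsewhere. Of 16 annotated pseudogenes of the family none reached 10 reads, and the highest count was 2.

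The genes around the enzymes included stronger differences, but these lists were chosen with earlier results of these data known, so their shares are no independent test. Of 10 genes of glutathione supply and turnover, all tested, 5 fell (1.36% of all tested genes did), none rose and 5 did not pass, with a median log2 fold change of −0.76. They were SLC7A11, the cystine importer (−3.09, SE 0.298), GCLM and GCLC, the subunits of glutamate-cysteine ligase (−2.52, SE 0.119, and −2.03, SE 0.0888), GSR, glutathione reductase (−1.46, SE 0.143), and CHAC2, which degrades glutathione (−0.79, SE 0.130). Their edgeR adjusted p-values were at most 0.00641, the value of CHAC2. Of 16 tested genes for the export and trimming of conjugates, 3 fell, none rose and 13 did not pass in edgeR, with a median log2 fold change of −0.18. These were the exporters ABCC2 (−1.64, SE 0.154, edgeR adjusted p = 0.000275), ABCG2 (−1.43, SE 0.184, edgeR adjusted p = 0.00185) and ABCC1 (−0.82, SE 0.0981, edgeR adjusted p = 0.00118). DESeq2 called 6 export and trimming genes, 5 lower and 1 higher, against 7.38% of all tested genes. The higher one, named after its values were seen, was the exporter ABCC4, at 136% of the control mean and with every NFE2L2 siRNA library above the controls (edgeR log2 fold change 0.41, SE 0.0939, edgeR adjusted p = 0.0289, DESeq2 adjusted p = 0.00422). Against control duplex 2 alone 2 of the supply and turnover genes and none of the export genes passed, where 59 of 17680 genes did.

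Proteins that share the glutathione S-transferase fold but belong to other families gave no call. Of 17 tested, none passed 0.01 in edgeR or in DESeq2, 7 had an unadjusted p under 0.05 in edgeR, against 25% of all tested genes, and the median log2 fold change was −0.16. The most abundant in CPM, the elongation factor subunit EEF1B2, had a log2 fold change of −0.08 (SE 0.123, edgeR adjusted p = 0.743).

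Markers of other cell types were low. The sum of the fibroblast genes COL1A1, COL3A1 and PDGFRB ran from 11.4 to 17.5 CPM with NFE2L2 siRNA and from 5.18 to 6.11 CPM with control siRNA. The endothelial genes VWF and CDH5 (PECAM1 had no matched identifier) summed to 0.612 to 1.01 CPM and 0.211 to 0.310 CPM. PTPRC had at most 3 reads and CD3E at most 1 read in a library, the leukocyte sum was 0.0776 to 0.222 CPM against 0.106 to 0.253 CPM, and of the hepatocyte markers APOA2 was at 0 in every library and ALB had 13 to 60 reads (0.362 to 1.00 CPM against 0.507 to 1.54 CPM). The epithelial sum ran from 7462 to 11946 CPM with NFE2L2 siRNA and from 7641 to 8010 CPM with control siRNA, mostly from KRT8 and KRT18. EPCAM by itself was as low as the fibroblast gene COL1A1, at 3.595 to 11.05 CPM against 3.595 to 13.92 CPM over all libraries. The part of these markers in the differences of the glutathione S-transferase genes was not tested.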

How the data were processed

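Strand-specific total RNA sequencing, with ribosomal RNA removed, was analysed for 8 A549 transfections grouped by their labels. The authors deposited counts, the whole number of reads per GENCODE v19 gene, without normalization. The submitters' processing notes name HISAT 0.1.6 and HTSeq 0.6.0, and counting used the strand. Of all entries, 60.3% to 65.6% fell on genes and 16.9% to 19.1% were not uniquely aligned. The latter, with the other unassigned classes, were left out of library sizes.

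For symbols and positions the GRCh37 mapping of GENCODE v44 was used, which held 55538 of the 60291 identifiers. A gene needed 10 or more reads in any of the 7 compared libraries, and edgeR 4.0.16 under R 4.3.3 gave the tests (quasi-likelihood, TMM factors 0.957 to 1.02, prior count 0.125, Benjamini-Hochberg adjustment, threshold 0.01). The SE was calculated back from the test, as the size of the log2 fold change divided by the square root of its F statistic. The 95% intervals were built from this SE and a t quantile. Alternatives were DESeq2 1.42.0, limma-voom (limma 3.58.1), other scalings, filters, thresholds and control groups, and the omission of each library. Exact permutation tests used log2(CPM + 0.5). The test scripts were checked on simulated data. These intervals carry the spread between libraries.

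The 10 genes and the gene lists were chosen with earlier results of these data known. Genes to be named were the 10 genes, NFE2L2, list genes past the threshold (or the most abundant tested one where none passed), pseudogenes with at least 10 reads and genes that overlap a member.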

Additional observations from a re-analysis of the deposited data

Results flagged for a closer look

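GSTO1 had 1 control siRNA library apart from the others: replicate 2 stood at 101.7 CPM against 92.6 to 94.0 CPM in the other three, a gap of 0.848 of the whole range and above Dixon's 95% critical value for 4 samples. Of 11 genes checked in this way, chance would give 0.55. In the mock library, which was left out of the reported comparison and entered 1 alternative fit as a further control, GSTM4 was at 6.41 CPM, above the 5.07 to 6.13 CPM of the control siRNA libraries, and GSTK1 was at 61.8 CPM, above their 56.1 to 57.1 CPM. Both values rest on a single library, and its difference from the controls was not tested.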

How the results depend on the processing

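No paired analysis was possible because, in the labels, a number names a duplex in the NFE2L2 siRNA group and a repeat of a duplex in the control group, and so links no samples. MGST1 kept its direction in all 18 alternatives and its call in 16, and fell short of the threshold against control duplex 2 alone (−1.28) and with each control duplex as 1 summed library (−1.32). The number of the 10 genes past the threshold, 1 in the reported fit, was 2 with a threshold of 0.05, DESeq2, a filter of 1 read in any library, limma-voom, the mock library added to the controls or a robust fit, 0 against control duplex 2 alone or with summed duplexes, and 1 to 2 with each library left out. Over all genes, 491 became 1456 with a threshold of 0.05, 1314 with DESeq2, 1019 with the 1-read filter, 772 with the mock library added, 120 against control duplex 1, 59 against control duplex 2, 78 with summed duplexes and 163 to 915 with each library left out. Fewer samples entered the fits on 1 control duplex. Elsewhere the cause was not tested.

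NFE2L2 itself was at −1.52 and −1.59 against control duplexes 1 and 2 alone and −1.54 with summed duplexes, with edgeR adjusted p-values of 0.0229, 0.0259 and 0.0235. The sign of GSTM2 turned against control duplex 1 alone (0.13), with library size alone (0.0168), with limma-voom (0.00207) and with single libraries left out (range −0.135 to 0.0535). The sign of GSTK1 turned without NFE2L2 siRNA replicate 3 (range with each library left out −0.0631 to 0.222).

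Over all tested genes, 8.17% passed with a threshold of 0.05 and 7.38% with DESeq2. With the 1-read filter 1019 of 29942 genes passed, and against control duplex 2 alone 59 of 17680. Of the other family genes, 2 passed with a threshold of 0.05, 1 with DESeq2, 1 with the 1-read filter and 0 to 1 with each library left out. Of the glutathione supply and turnover genes 2 passed against control duplex 2 alone and 4 to 6 with each library left out. Of the export genes 7 passed with a threshold of 0.05, 6 with DESeq2 (5 lower and 1 higher), 5 with the 1-read filter, 0 against control duplex 2 alone and 3 to 4 with each library left out. Of the GST-fold genes 1 passed with a threshold of 0.05. Between the control duplexes 3 of the 10 genes passed with a threshold of 0.05, where 10.1% of all tested genes did. With any control library left out its duplex had a single library, so no count of genes passing is given for those fits. With the length of all annotated exons, chosen after seeing the data, the level of GSTP1 over that of MGST1 moved to 5.83 times.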
